A study of Atriplex prostrata and Atriplex rosea and Atriplex prostrata x Atriplex rosea with 87 samples.

Results

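The top and bottom parts of 11 mm leaves of Atriplex rosea, a plant with C4 photosynthesis, were compared across all loci of a deposited RNA sequencing count table. The leaves had a leaf plastochron index, a measure of developmental age computed from leaf lengths, of 0.3. By their labels 6 libraries qualified, 3 of the top part (here the tip) and 3 of the bottom part (the base), out of 87 labelled samples and 48 libraries whose count column could be matched to a label. Further libraries of A. rosea came from tips and bases of 13 mm leaves (index 0.8) and from whole leaves of 1 mm, 5 mm and 7.5 mm. Tips and bases of 15 mm leaves of Atriplex prostrata, a C3 species, had the same index of 0.3. No mutant, transgene or treatment entered the groups: all groups shared growth chamber conditions of 27 °C in the light (17 h, 500 µmol photons m-2 s-1) and 22 °C in the dark, with harvest 2 h into the light period. Per the labels' protocols, leaves over 10 mm were cut into their parts at harvest. The labels do not say whether the replicates came from separate plants, and the p-values therefore rest on the spread among libraries, part of which may be technical.

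Leaves of dicotyledons mature from the tip towards the base. Cell division stops first at the tip and persists longest near the petiole, and cells behind the front of division expand, build their final walls and fill with chloroplasts. In C4 leaves, phosphoenolpyruvate carboxylase in the mesophyll first fixes carbon into a C4 acid, a decarboxylase releases it again in the bundle sheath, and pyruvate orthophosphate dikinase regenerates the acceptor. A cut across such a leaf therefore sets older tissue against younger tissue of the same organ.

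The 6 libraries held 9377672 to 12525754 counts. Reads of Atriplex were assigned to loci of Arabidopsis thaliana, so a locus stands for the Atriplex reads nearest to it, reads of 1 gene can be spread over several paralogs, and levels are given in CPM (counts scaled to the same library total), which are not comparable between loci of different length. The libraries did not separate cleanly by part. On the first principal component of the 24 A. rosea libraries, which held 62.9% of the variance and ran from 1 mm leaves (-68.4 to -60.6) to 13 mm tips (51.9 to 69.5), the 11 mm tips lay at 47.1, 42.2 and 20.97 and the bases at 14.6, 33.2 and 18.9. Tip replicate 3 was thus lower on this axis than base replicate 2, and by a chi-square of the counts its nearest library was base replicate 3 (7.79 per degree of freedom), not another tip. No pair of the 6 libraries was close enough to be 1 library deposited under 2 labels.

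Markers of leaf tissue were present in both parts. The 5 markers of mesophyll and bundle sheath in the table, among them RBCS1A, RCA, PPC2, PPDK and NAD-ME1, summed to 42591 to 55941 CPM in tips and 32040 to 49376 CPM in bases. The 6 meristem and boundary markers summed to 1.51 to 2.47 CPM in tips and 2.91 to 4.09 CPM in bases, with LAS at 0 in all 6 libraries and the meristem gene STM at 2 counts over the tips and 3 over the bases. The 3 markers of dividing cells (CYCB1;1, KNOLLE and MCM2) summed to 120 to 187 CPM in tips and 146 to 205 CPM in bases. Xylem markers summed to 599 to 671 CPM in tips and 669 to 719.5 CPM in bases, and the 3 epidermal and guard cell markers in the table to 33.2 to 38.3 CPM in tips and 33.5 to 38.6 CPM in bases. Phloem markers, 2 in the table, summed to 62.9 to 116 CPM in tips and 60.5 to 87.6 CPM in bases. In such bulk samples fewer cells of a type and less RNA per cell cannot be told apart.

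Tips of 11 mm leaves differed from bases in few loci, and every locus that passed the test was lower in the tip. In edgeR's quasi-likelihood test over 14336 loci, 13 loci fell in tips at a Benjamini-Hochberg adjusted p under 0.05 (0.0907% of the loci tested) and 0 rose (0%). Without a correction, 396 loci were higher (2.76%) and 540 lower (3.77%) at p under 0.05, and DESeq2 called 4 higher and 39 lower. Of the 13, 7 were at least 2-fold lower in tips (0.0488% of the loci). In each of the 13 all 3 tips were below all 3 bases, which was so for 807 loci (5.63%), while 777 loci (5.42%) had all 3 tips above all 3 bases. Leaving out tip replicate 3 gave 8 loci higher and 23 lower, 11 of the 13 among them. Leaving out tip replicate 1, tip replicate 2, base replicate 1 or base replicate 3 left 1 lower locus each, and with the 6 libraries fitted alone, without the other A. rosea libraries to estimate the spread, 0 loci passed in either direction (940 at unadjusted p under 0.05).

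**Figure D1:**
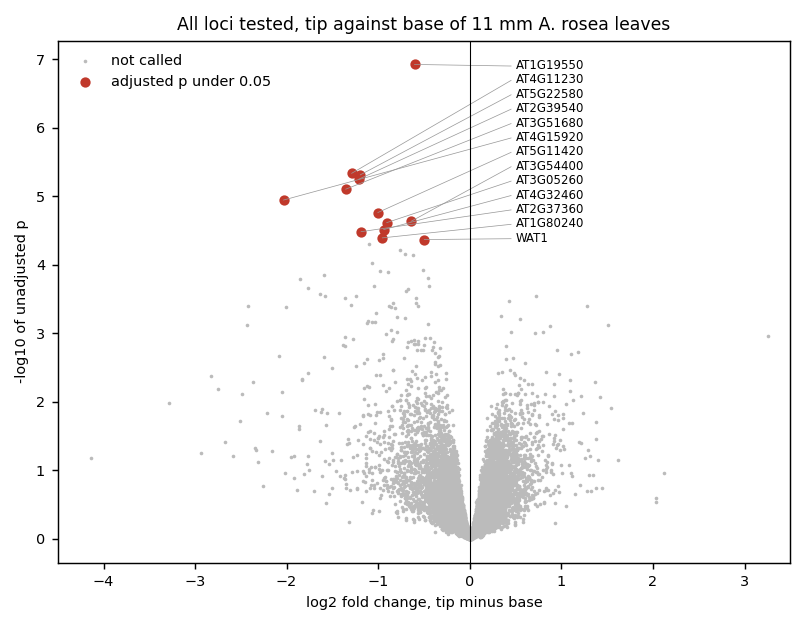
Each point is 1 of 14336 loci, with the log2 fold change of tip minus base in 11 mm leaves on the x axis and the -log10 of the unadjusted p of edgeR's quasi-likelihood test on the y axis. The 13 red points, all left of 0, passed an adjusted p of 0.05, and no locus to the right of 0 did.

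The loci that fell in tips included 3 with a DUF642 domain. Proteins with this domain are secreted proteins of plant cell walls. AT5G11420, which the deposited annotation describes only by that domain, had 96.1, 118 and 136 CPM in tips, against 245, 182.5 and 275 CPM in bases (log2 fold change -1.004, SE 0.181, adjusted p 0.0354). AT4G32460 of the same family had 55.2, 63.7 and 75.4 CPM in tips, against 127, 97.0 and 149.9 CPM in bases (log2 fold change -0.94, SE 0.178, adjusted p 0.0429). For AT1G80240 the tips had 39.3, 47.4 and 55.1 CPM, against 96.2, 73.0 and 106 CPM in bases (log2 fold change -0.96, SE 0.185, adjusted p 0.0473). All 3 tips were below all 3 bases in each, and base replicate 2 was the lowest base each time. The counts of these loci kept 1 ratio: AT1G80240 over AT4G32460 lay between 0.709 and 0.760 in the 6 libraries, and the chi-square of constant ratios over the 24 A. rosea libraries was 0.929, 1.26 and 1.304 per degree of freedom for the 3 pairs. They therefore do not count as 3 separate measurements, since reads of 1 Atriplex gene could be split over them. The other DUF642 loci tested did not share that ratio with AT5G11420 (15.5 to 165 per degree of freedom) and were not called: AT3G08030 had 29.0, 39.7 and 48.7 CPM in tips and 56.9, 50.6 and 63.2 CPM in bases, a log2 fold change of -0.54 with an adjusted p of 0.642. All 6 tested DUF642 loci had a negative log2 fold change, against 49.6% of all loci.

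A locus of the gibberellin-regulated family, small cysteine-rich secreted peptides many of which respond to gibberellin, fell as well. AT2G39540 had 14.4, 17.3 and 12.1 CPM in tips, against 33.2, 29.2 and 38.8 CPM in bases (log2 fold change -1.21, SE 0.201, adjusted p 0.0202), and here tip replicate 3 was the lowest library. Of 14 loci of the family tested, 13 had a negative log2 fold change (median -0.32), against 49.6% of all loci, and 1 was called. In 3 of them all 3 tips lay below all 3 bases, which was so for 5.63% of all loci. At 13 mm the signs were mixed, from -2.18 (GASA14) to 1.05 (AT2G14900). Whether reads of 1 Atriplex gene were split over these loci was not tested. GASA14, with 0.863, 1.93 and 3.58 CPM in tips and 5.39, 4.15 and 7.62 CPM in bases, and GASA4, with 5.43, 6.87 and 6.59 CPM in tips and 12.1, 13.8 and 14.9 CPM in bases, did not overlap between the parts but were not called (adjusted p 0.261 and 0.541). WAT1 (AT1G75500), a vacuolar membrane transporter of auxin that Arabidopsis fibres need to thicken their walls, had 47.0, 48.5 and 51.1 CPM in tips, against 63.3, 77.2 and 66.5 CPM in bases (log2 fold change -0.50, SE 0.0967, adjusted p 0.0473). Its tips lay close together, and no tip reached the lowest base.

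The locus with the smallest p was AT1G19550, a member of the glutathione S-transferase family, whose enzymes couple glutathione to other compounds. It had 59.7, 65.0 and 65.5 CPM in tips, against 104, 89.0 and 96.5 CPM in bases (log2 fold change -0.60, SE 0.0772, adjusted p 0.00171). The spread within each part was small beside the gap between the parts, 63.4 ± 3.21 CPM in tips and 96.4 ± 7.33 CPM in bases (SD, n = 3 each). Of the 24 tested loci described as glutathione S-transferases it was the only one called, and the median of that family was 0.09. The eukaryotic aspartyl protease AT3G54400 had 44.3, 45.5 and 61.8 CPM in tips, against 74.0, 82.1 and 80.9 CPM in bases (log2 fold change -0.64, SE 0.119, adjusted p 0.0387). Its tip replicate 3 stood above the other tips and still below every base. AT5G07030 of the same family was not called in edgeR (adjusted p 0.0599) but was in DESeq2 (0.0123). The ratio of AT3G54400 to AT5G07030 lay between 3.24 and 3.98 in the 6 libraries. Its chi-square over the 24 A. rosea libraries was 1.22 per degree of freedom, so reads of 1 Atriplex gene could be split over both. AT4G11230, in the riboflavin synthase-like superfamily, had 15.3, 24.3 and 29.4 CPM in tips, against 50.2, 63.8 and 55.6 CPM in bases (log2 fold change -1.29, SE 0.211, adjusted p 0.0202).

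Other loci that fell were named only by a domain or superfamily. AT5G22580, with a stress responsive A/B barrel domain, had 12.1, 11.0 and 13.6 CPM in tips, against 31.8, 24.3 and 28.0 CPM in bases (log2 fold change -1.20, SE 0.196, adjusted p 0.0202). AT3G51680, an NAD(P)-binding Rossmann-fold protein, had 12.1, 12.8 and 18.4 CPM in tips, against 39.9, 27.0 and 44.2 CPM in bases (log2 fold change -1.35, SE 0.231, adjusted p 0.0226). AT3G05260 of the same superfamily had 58.2, 65.4 and 59.2 CPM in tips, against 118, 84.2 and 140 CPM in bases (log2 fold change -0.91, SE 0.168, adjusted p 0.0387). In AT3G05260 the bases varied more than the tips, with an SD of 28.1 CPM against 3.91 CPM. For AT3G51680 the SD was larger in bases as the mean was, 37.0 ± 8.95 CPM against 14.4 ± 3.44 CPM in tips. Base replicate 2 was the lowest base in both Rossmann-fold loci. AT1G54870 of that superfamily was not called in edgeR (adjusted p 0.0885) but was in DESeq2 (0.0107). It kept a ratio to AT3G05260 of 1.55 to 1.71 in the 6 libraries, though not over all 24 A. rosea libraries (5.09 per degree of freedom). Whether AT1G54870 and AT3G05260 are separate measurements was not tested.

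The largest fold change and the lowest counts came from transporter families. AT4G15920 belongs to the Nodulin MtN3 family, which holds the SWEET sugar transporters. It had 3, 7 and 11 counts (0.370, 0.752 and 1.04 CPM) in tips, against 25, 22 and 50 counts (2.69, 2.28 and 4.14 CPM) in bases (log2 fold change -2.03, SE 0.356, adjusted p 0.0272). AT3G16690 of the same family was not called (adjusted p 0.125). The ratio of AT4G15920 to it ran from 0.60 to 1.85 in the 6 libraries. With counts this low, a chi-square of 1.21 per degree of freedom over 24 libraries cannot show that the ratio was constant. SWEET11, which in Arabidopsis exports sucrose to the phloem, had 32.2, 27.0 and 12.0 CPM in tips and 13.0, 22.5 and 10.0 CPM in bases, which overlap. AT2G37360, an ABC-2 type transporter, had 16, 18 and 21 counts (1.97, 1.93 and 1.98 CPM) in tips, against 39, 46 and 54 counts (4.201, 4.78 and 4.47 CPM) in bases (log2 fold change -1.19, SE 0.226, adjusted p 0.0429). Its libraries hardly varied within a part, but the counts are low. The next locus below the threshold, PHO1, whose Arabidopsis protein exports phosphate, had 2.84, 3.87 and 2.73 CPM in tips and 5.39, 5.502 and 9.19 CPM in bases with an adjusted p of 0.0511 in edgeR and 0.0107 in DESeq2.

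All 13 loci also had lower levels in tips of 13 mm leaves. The 6 libraries of 13 mm enter no 11 mm mean, but they were part of the 24-library fit whose estimate of the spread the 13 calls rest on, so they are not wholly separate data. All 3 tips of 13 mm lay below all 3 bases of 13 mm in 13 of the 13 loci, against 6.15% of all loci, and 9 of the 13 were called lower there, against 0.216% of all loci (31 loci). The 9 were the 3 DUF642 loci, AT4G15920, AT4G11230, AT5G22580, AT3G54400, AT1G19550 and WAT1. The 3 DUF642 loci do not count as separate measurements, so both tallies may hold 1 gene 3 times. AT4G11230 averaged 22.8 CPM in 13 mm tips and 59.2 CPM in 13 mm bases, near its 23.0 and 56.5 CPM in 11 mm tips and bases, with log2 fold changes of -1.37 (SE 0.210) at 13 mm and -1.29 at 11 mm. AT5G11420 averaged 95.2 CPM in 13 mm tips and 224 CPM in 13 mm bases (log2 fold change -1.24, SE 0.182, adjusted p 0.00273). The loci not called at 13 mm were AT3G51680 (-1.02, adjusted p 0.0575), AT2G39540 (-0.80, adjusted p 0.0799), AT3G05260 (-0.57, adjusted p 0.113) and AT2G37360 (-0.40, adjusted p 0.364).

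**Figure D2:**
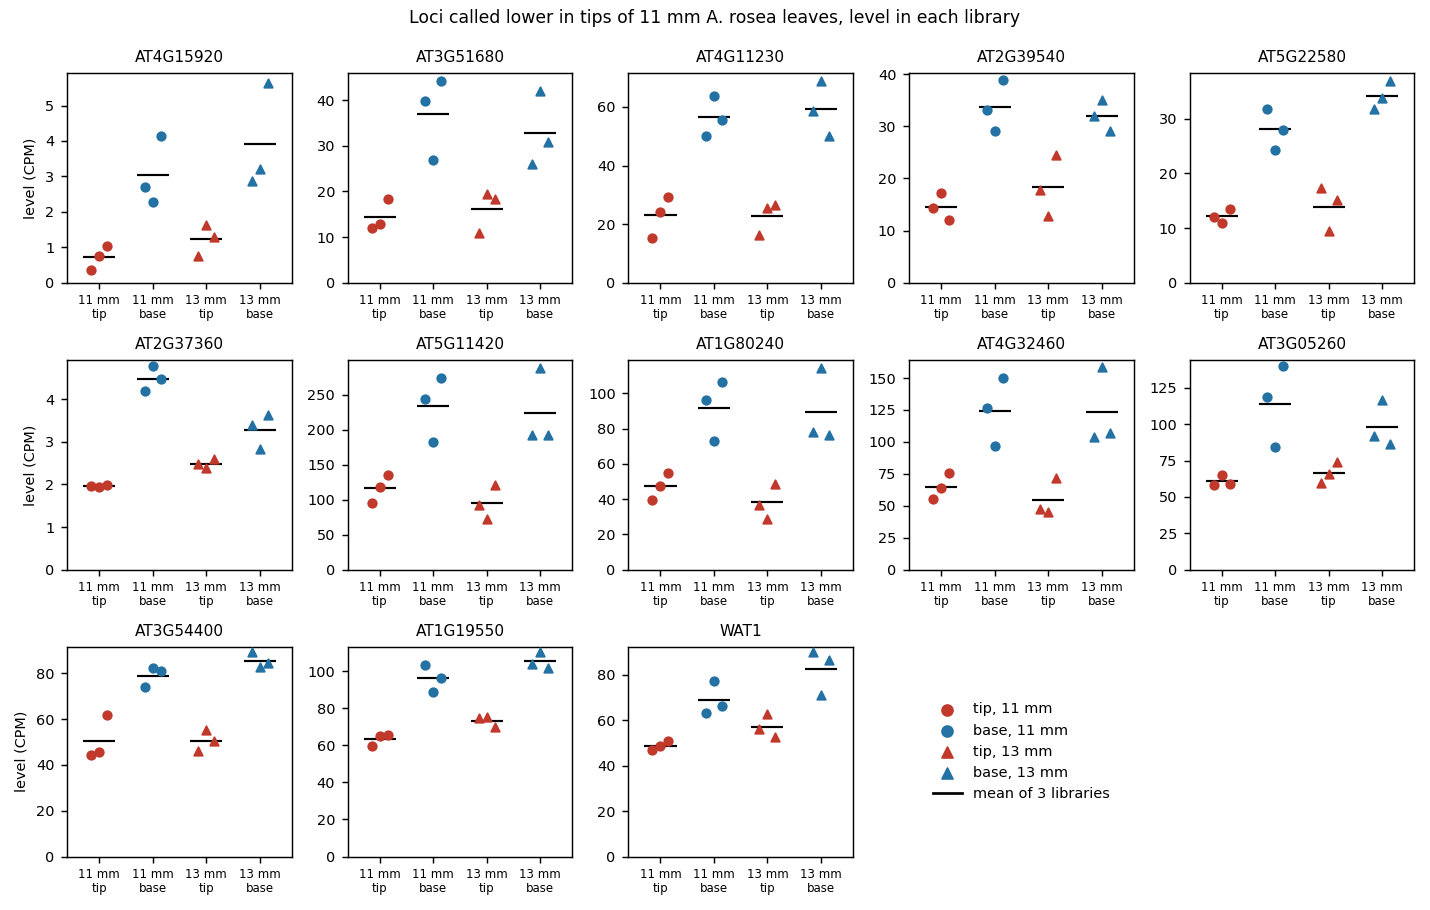
Level in CPM of the 13 loci called lower in 11 mm tips, with 1 point per library and a bar at the mean of 3, for tips (red) and bases (blue) of 11 mm (circles) and 13 mm leaves (triangles). In all 13 panels the 3 red circles lie below the 3 blue circles and the 3 red triangles below the 3 blue triangles.

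The levels of these loci across leaf ages took different courses. AT4G11230 averaged 105 CPM in 1 mm leaves, 85.3 CPM in 5 mm leaves and 78.3 and 91.0 CPM in leaf 9 and leaf 10 of 7.5 mm, all above its 11 mm bases. AT3G54400 likewise stood at 108 CPM in 1 mm leaves and 103 CPM in 5 mm leaves, against 79.0 CPM in 11 mm bases. The DUF642 locus AT5G11420 went the other way among whole leaves, with 92.3 CPM in 1 mm leaves, 182 CPM in 5 mm leaves and 175.5 and 165.5 CPM in leaf 9 and leaf 10 of 7.5 mm, so that 11 mm bases (234 CPM) stood above every whole-leaf mean and 11 mm tips (117 CPM) only above that of 1 mm leaves. AT1G19550 averaged 102.5 to 117 CPM in the 4 groups of whole leaves, 96.4 CPM in 11 mm bases and 105 CPM in 13 mm bases, and was lower only in the means of 11 mm tips (63.4 CPM) and 13 mm tips (73.3 CPM). From 5 mm to 13 mm leaves, 5 of the 13 loci fell and 1, WAT1, rose at an adjusted p under 0.05 in edgeR, against 26.5% and 25.9% of all loci.

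No gene of the C4 cycle passed the test, and in most of those named the bases, base replicate 2 above all, overlapped the tips. PPC2 (AT2G42600), which takes the reads of phosphoenolpyruvate carboxylase, had 12871, 12044 and 11469 CPM in tips and 7765, 12606 and 8391 CPM in bases. Base replicate 2 was as high as the tips, and the log2 fold change was 0.34 with an SE of 0.382. PPDK (AT4G15530), pyruvate orthophosphate dikinase, had 19944, 17130 and 12743 CPM in tips and 9544, 15707 and 10504 CPM in bases (log2 fold change 0.48, SE 0.409). Among the decarboxylases NAD-ME1 had 2925, 2382 and 2218 CPM in tips and 1578, 2590 and 1668 CPM in bases, and NAD-ME2 had 2209, 1882 and 1742 CPM in tips and 1244, 1908 and 1337 CPM in bases. Again base replicate 2 overlapped the tips. The aminotransferases that move carbon between the cell types, ALAAT1 and ASP3, had log2 fold changes of 0.55 (SE 0.417) and 0.52 (SE 0.440). BCA1, a carbonic anhydrase that supplies bicarbonate, was the member with the largest difference: 6389, 5055 and 3503 CPM in tips and 2668, 3215 and 2771 CPM in bases, without overlap (log2 fold change 0.79, SE 0.384, adjusted p 0.769). PPCK2, a kinase of the carboxylase, had 11.0, 18.7 and 12.2 CPM in tips and 8.19, 9.76 and 8.44 CPM in bases (adjusted p 0.642).

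Over the list of C4 enzymes, 21 of 24 tested members had a positive log2 fold change, with a median of 0.38 against 0.00 over all loci and with 0 called. All 3 tips lay above all 3 bases in 4 members (16.7%, against 5.42% of all loci) and below them in 1, NADP-ME2. The 9 tested transporters of the cycle all had positive values (median 0.37). BASS2, the plastid pyruvate carrier, had 4946, 4541 and 3763 CPM in tips and 2897, 3716 and 3134 CPM in bases, without overlap (log2 fold change 0.44, SE 0.286). DIC1, a mitochondrial dicarboxylate carrier, overlapped between the parts, with 597, 422 and 327 CPM in tips and 249, 426 and 229 CPM in bases.

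The photosynthetic apparatus followed the same order of libraries. All 15 tested members of the Calvin-Benson cycle, all 15 of photosystem I, all 18 of photosystem II and all 19 of cyclic electron transport had positive log2 fold changes, with medians of 0.29, 0.29, 0.25 and 0.42, and 0 were called. RBCS1A, the Rubisco small subunit, had 13290, 12219 and 11387 CPM in tips and 8869, 12572 and 10077 CPM in bases, and RCA, Rubisco activase, had 6911, 5914 and 4774 CPM in tips and 4284, 5901 and 4573 CPM in bases. In both, base replicate 2 stood above tip replicate 3. The cyclic electron transport list, mainly subunits of the NDH complex that returns electrons from photosystem I, had the largest share of members without overlap among these photosynthesis lists: 9 of 19 (47.4%, against 5.42% of all loci) had all 3 tips above all 3 bases. PNSB3 had 940, 869 and 554 CPM in tips and 515, 511 and 492 CPM in bases (log2 fold change 0.64, SE 0.353, adjusted p 0.801). NDHL overlapped by 1 base, with 277, 268 and 201 CPM in tips and 169, 209 and 179 CPM in bases (log2 fold change 0.42, SE 0.275). In 13 mm leaves all 19 members were again positive (median 0.45), with 0 called.

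Photorespiration recycles the product of Rubisco's reaction with oxygen. It had 18 of 19 positive members (median 0.27), among them SHM1, serine hydroxymethyltransferase, with 1053, 940 and 663 CPM in tips and 549, 939.9 and 645 CPM in bases. Chlorophyll synthesis had 16 of 17 positive members with a smaller median of 0.15. Of the regulators of chloroplast development, 12 of 14 were positive (median 0.21), and the paired transcription factors GLK1 and GLK2, which switch on photosynthesis genes, did not overlap between the parts. GLK1 had 57.7, 49.1 and 50.1 CPM in tips and 38.0, 44.6 and 33.6 CPM in bases (log2 fold change 0.43, SE 0.206, adjusted p 0.762). GLK2 had 28.0, 24.1 and 21.5 CPM in tips and 19.1, 19.7 and 18.1 CPM in bases (adjusted p 0.761). These medians depended on single libraries: leaving out 1 library gave 0.28 (without tip replicate 1) to 0.57 (without base replicate 2) for C4 enzymes, 0.18 (without tip replicate 1) to 0.42 (without base replicate 2) for the Calvin-Benson cycle and 0.16 (without tip replicate 1) to 0.44 (without tip replicate 3) for photosystem I. Without tip replicate 1 and without base replicate 2, the lowest and highest medians were 0.13 and 0.40 for photosystem II, 0.13 and 0.40 for photorespiration and 0.095 and 0.21 for chlorophyll synthesis. For cyclic electron transport the range was 0.33 to 0.53. All stayed positive, with 0 called in edgeR and in DESeq2.

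**Figure D3:**
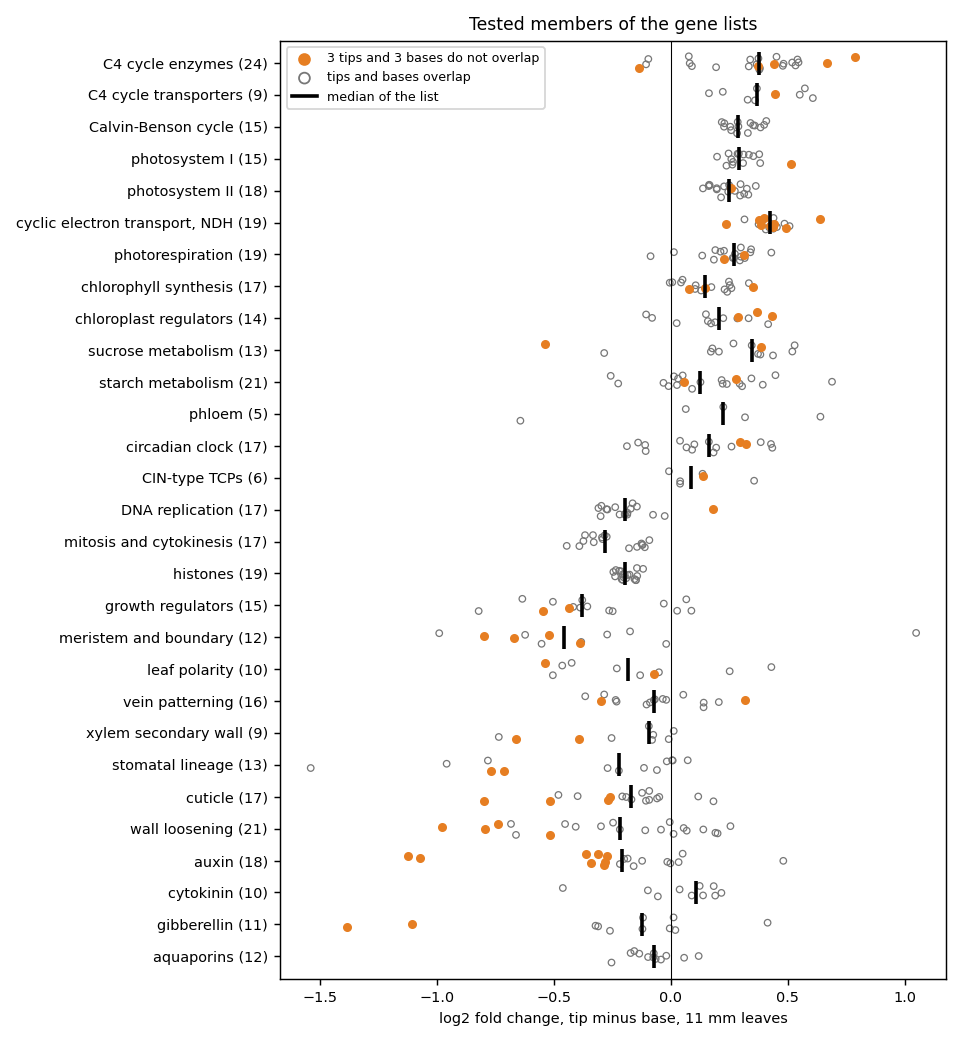
Log2 fold change of tip minus base in 11 mm leaves for each tested member of 29 gene lists, with the number of members in parentheses and the median as a black bar. Orange members have all 3 tips on 1 side of all 3 bases; lists of photosynthesis lie right of 0 and those of cell division, auxin and wall loosening mostly left of it, and no member passed an adjusted p of 0.05 in edgeR (DESeq2 called GH3.1, GH3.5 and EXPA11).

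Genes of the cell cycle were on the lower side in tips, and none passed the test. For the DNA replication list 16 of 17 members were negative (median -0.20), for mitosis and cytokinesis all 17 (median -0.28) and for histones all 19 (median -0.20). Leaving out single libraries moved these medians by over 1.5 times: DNA replication had -0.10 without base replicate 1 and -0.39 without tip replicate 3, mitosis -0.083 and -0.52 without the same libraries, and histones -0.032 without tip replicate 1 and -0.48 without tip replicate 3. CYCB1;1, a mitotic cyclin, had 19.7, 23.5 and 32.4 CPM in tips and 40.7, 20.3 and 32.1 CPM in bases. MCM2, a subunit of the replicative helicase, had 88.2, 87.0 and 131 CPM in tips and 138, 111 and 131 CPM in bases. Tips 1 and 2 were thus low and tip replicate 3 stood with bases 1 and 3, while base replicate 2 had less than the other bases. Of the mitosis and histone members 0 had tips and bases apart, against 5.42% of all loci with tips above and 5.63% with tips below. In the DNA replication list 1 of 17 did (5.88%), with all tips above all bases. Growth regulators that keep leaf cells proliferating had 12 of 15 negative members (median -0.38, and -0.25 without tip replicate 2 or -0.59 without tip replicate 3). ANT, a promoter of organ growth, had 5.30, 7.63 and 8.38 CPM in tips and 10.6, 9.55 and 11.3 CPM in bases (log2 fold change -0.55, SE 0.309, adjusted p 0.807). AN3, a coactivator of the GRF transcription factors, overlapped, with 2.096, 2.58 and 4.71 CPM in tips and 7.22, 3.53 and 4.31 CPM in bases.

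The mean level of each list in each library showed the order of the samples directly. In log2 CPM relative to the mean of the 6 libraries, the C4 enzymes stood at 0.27, 0.24 and -0.01 in tips and -0.31, 0.05 and -0.24 in bases, and mitosis at -0.37, -0.32 and 0.30 in tips and 0.42, -0.23 and 0.21 in bases. Tip replicate 3 lay inside the range of the bases in 20 of 37 lists, while tips 1 and 2 lay outside that range in 28 and 26 lists. In 12 lists tips 1 and 2 were beyond the bases on 1 side and tip replicate 3 was within them. Leaving out 1 library moved the median by over 1.5 times or changed its sign in 32 of the 37 lists. What set tip replicate 3 and base replicate 2 apart from their groups was not tested.

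**Figure D4:**
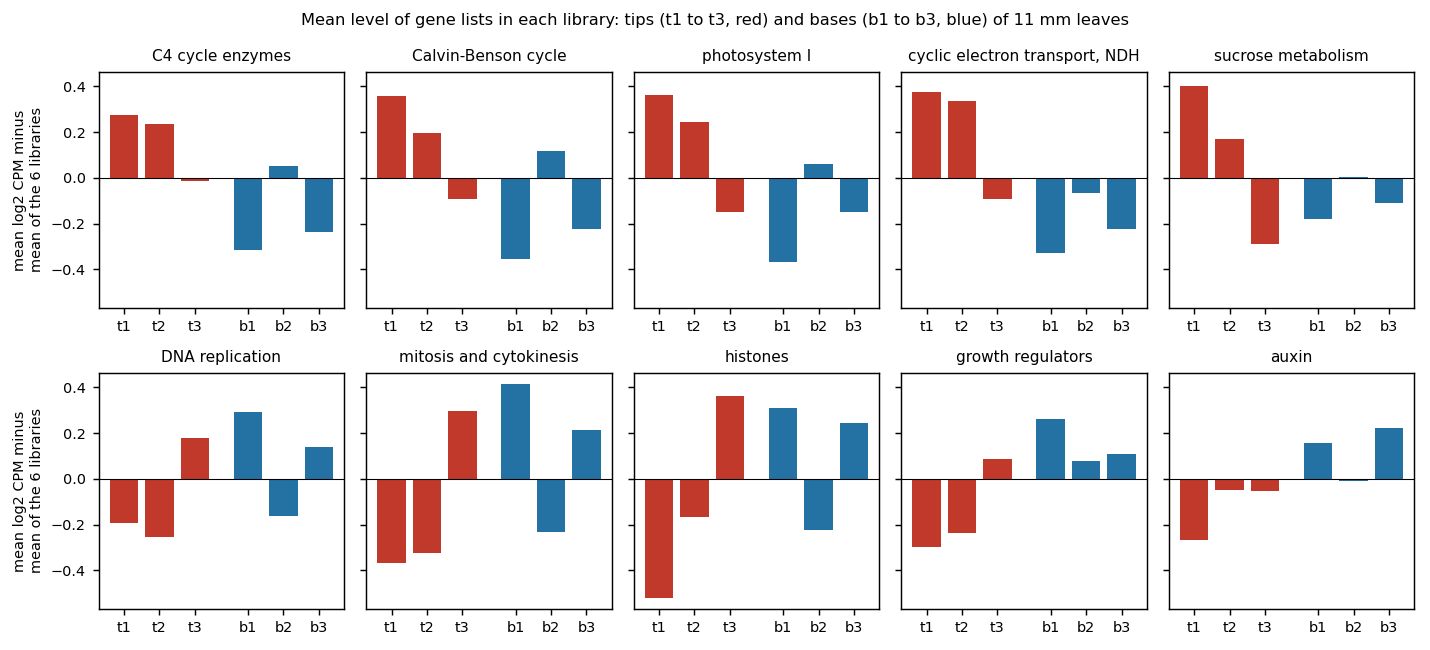
Mean log2 CPM of the members of 10 gene lists in each 11 mm library, relative to the mean of the 6 libraries, for tips (t1 to t3, red) and bases (b1 to b3, blue). In the DNA replication, mitosis and histone lists t3 stands with b1 and b3 above 0 while b2 stands with t1 and t2 below it.

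Genes of auxin metabolism and response, of wall expansion and of the leaf surface were mostly lower in tips. In the auxin list 15 of 18 members were negative (median -0.21, and -0.12 without tip replicate 1), 8 (44.4%, against 5.63% of all loci) had all 3 tips below all 3 bases, and edgeR called 0 while DESeq2 called 2, GH3.1 and GH3.5, lower. The auxin-conjugating GH3 enzymes, which auxin induces, had the largest differences. GH3.1 had 29.7, 34.0 and 36.7 CPM in tips and 85.0, 56.4 and 70.2 CPM in bases (log2 fold change -1.07, SE 0.269, adjusted p 0.182 in edgeR and 0.0338 in DESeq2). GH3.5 had 4.56, 5.16 and 7.25 CPM in tips and 16.4, 9.34 and 11.8 CPM in bases (log2 fold change -1.12, SE 0.283, adjusted p 0.182 in edgeR and 0.0309 in DESeq2). Outside the list, GH3.3 was also called lower in DESeq2 (log2 fold change -1.03, adjusted p 0.0356). Whether reads of 1 Atriplex gene were split over the GH3 loci was not tested. The auxin response repressors IAA8, IAA9, IAA16 and IAA27 and the auxin import carriers LAX2 and LAX3 made up the rest of the 8, with log2 fold changes of -0.36 to -0.27. In 13 mm tips GH3.1 had a log2 fold change of -1.25 (adjusted p 0.0575). The auxin list as a whole had a smaller difference there, with a median of -0.096 and 6 of 18 members positive.

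Wall loosening proteins let the wall yield as cells enlarge. Of 21 tested expansins and xyloglucan endotransglucosylases 14 were negative (median -0.22), 4 (19.0%, against 5.63% of all loci) had all 3 tips below all 3 bases, and 7 were lower at an unadjusted p under 0.05, against 3.77% of all loci. In this list edgeR called 0, and DESeq2 called 1, EXPA11. EXPA11, an expansin, had 9.99, 9.56 and 14.1 CPM in tips and 29.3, 18.5 and 19.0 CPM in bases (log2 fold change -0.98, SE 0.208, adjusted p 0.0885 in edgeR and 0.00693 in DESeq2), and XTH9 had 94.6, 97.9 and 112 CPM in tips and 147, 142 and 147 CPM in bases (log2 fold change -0.52, SE 0.144, adjusted p 0.277). In these genes tip replicate 3 was the highest tip but did not reach the bases. The median of the wall loosening list was -0.13 without base replicate 3 and -0.35 without tip replicate 2. At 13 mm it was -0.066, with 8 of 21 members positive. In the stomatal lineage list 10 of 13 members were negative (median -0.22, and -0.44 without tip replicate 3). The receptor kinases ER and ERL2, which perceive the peptides that space stomata, did not overlap: ER had 48.3, 50.5 and 96.5 CPM in tips and 121, 102 and 110 CPM in bases (log2 fold change -0.77, SE 0.268, adjusted p 0.628). MUTE, a regulator of the stomatal lineage, was near 1 CPM in both parts. Of the cuticle list 15 of 17 were negative (median -0.17, and -0.096 without base replicate 1) with 4 below without overlap (23.5%, against 5.63% of all loci), among them CER4, a reductase that makes wax alcohols, with 4.69, 6.66 and 8.95 CPM in tips and 11.4, 9.55 and 14.6 CPM in bases (adjusted p 0.169). At 13 mm the median was -0.096 for the cuticle list and -0.94 for the stomatal lineage list.

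Boundary and polarity genes were mostly lower in tips at low levels. Of 12 tested meristem and boundary genes 11 were negative (median -0.45) and 4 (33.3%, against 5.63% of all loci) had all tips below all bases. At 13 mm the median of this list was -0.077, with 5 of 12 members positive. CUC3, which marks organ boundaries, had 1.11, 1.50 and 1.04 CPM in tips and 1.94, 2.08 and 1.82 CPM in bases (adjusted p 0.735), and BOP2, a regulator of leaf bases and petioles, had 7.89, 5.80 and 7.82 CPM in tips and 9.37, 10.3 and 8.53 CPM in bases (adjusted p 0.761). The abaxial identity gene FIL had 26.6, 27.2 and 30.2 CPM in tips and 47.6, 30.9 and 43.5 CPM in bases (adjusted p 0.703). SCR and SHR, which pattern the bundle sheath, overlapped between the parts: SCR had 64.0, 53.3 and 71.3 CPM in tips and 85.9, 65.0 and 71.4 CPM in bases, and SHR 38.3, 32.8 and 33.4 CPM in tips and 41.3, 29.6 and 30.0 CPM in bases. CIN-type TCPs, which end proliferation, had a median of 0.09 over 6 tested members, a sign that turned to -0.02 with library totals.

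Sugar metabolism was mixed. In the sucrose list 11 of 13 members were positive (median 0.35, and 0.11 without tip replicate 1 or 0.55 without tip replicate 3). SPS1F, sucrose phosphate synthase, had 216, 168 and 112 CPM in tips and 119, 138 and 109 CPM in bases, and SUC2, the phloem loader, had 105, 80.1 and 56.6 CPM in tips and 62.8, 78.8 and 52.3 CPM in bases. Both overlapped, since tip replicate 3 was at the level of the bases. SUS4, a sucrose synthase, had 42.9, 32.4 and 34.0 CPM in tips and 46.6, 40.8 and 45.5 CPM in bases. VI2, a vacuolar invertase of expanding cells, went against the list with 57.2, 64.4 and 72.6 CPM in tips and 91.9, 79.7 and 111 CPM in bases, without overlap (log2 fold change -0.54, SE 0.150, adjusted p 0.277). The morning clock genes CCA1 and LHY had 480, 372 and 253 CPM and 1202, 892 and 582 CPM in tips, against 327, 249.9 and 269.6 CPM and 766, 578 and 638 CPM in bases. Both overlapped. Starch metabolism had 17 of 21 positive members (median 0.13), the clock list 13 of 17 (median 0.16), cytokinin 7 of 10 (median 0.11), senescence 5 of 6 (median 0.09) and phloem 4 of 5 (median 0.22). Positive members were few among xylem secondary wall genes, 1 of 9 (median -0.09), gibberellin genes, 3 of 11 (median -0.12), vein patterning genes, 5 of 16 (median -0.07), aquaporins, 2 of 12 (median -0.07), and wounding and jasmonate genes, 0 of 7 (median -0.24). Of primary cellulose synthesis 0 of 3 were positive (median -0.04), of epidermal fate 1 of 4 (median -0.16) and of leaf polarity 2 of 10 (median -0.18). The 242 tested cytosolic ribosomal protein loci had a median of 0.00, which changed sign between scalings.

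Across all loci the sign of the difference between parts mostly went with leaf age, measured in other libraries. Of 3717 loci higher in 13 mm than in 5 mm leaves, 78.9% had a positive log2 fold change in 11 mm tips against 50.4% of all loci, and of 3806 loci lower with age 75.8% had a negative one against 49.6%. All 3 tips stood above all 3 bases in 440 (11.8%) of the loci that rose with age and in 38 (0.998%) of those that fell. These shares are a description and no test, since loci that change with age vary together. They rest on 3 tips and 3 bases, which overlapped on the first principal component. The tip minus base differences of 11 mm and 13 mm leaves, which share no library, had a Pearson correlation of 0.52 across 14336 loci, a description in which the loci are not independent and share the mapping and the scaling. Of the 31 loci called lower in 13 mm tips, 30 were negative at 11 mm and 9 were called, and all 3 called higher (0.0209%; FP3, OPT3 and AT4G29530) were positive. OPT3, whose Arabidopsis protein loads metals into the phloem, had 74.8, 84.8 and 114 CPM in 11 mm tips and 48.7, 57.4 and 59.9 CPM in 11 mm bases (log2 fold change 0.72, SE 0.165, adjusted p 0.125 in edgeR and 0.0199 in DESeq2), the smallest edgeR p among loci higher in tips.

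**Figure D5:**
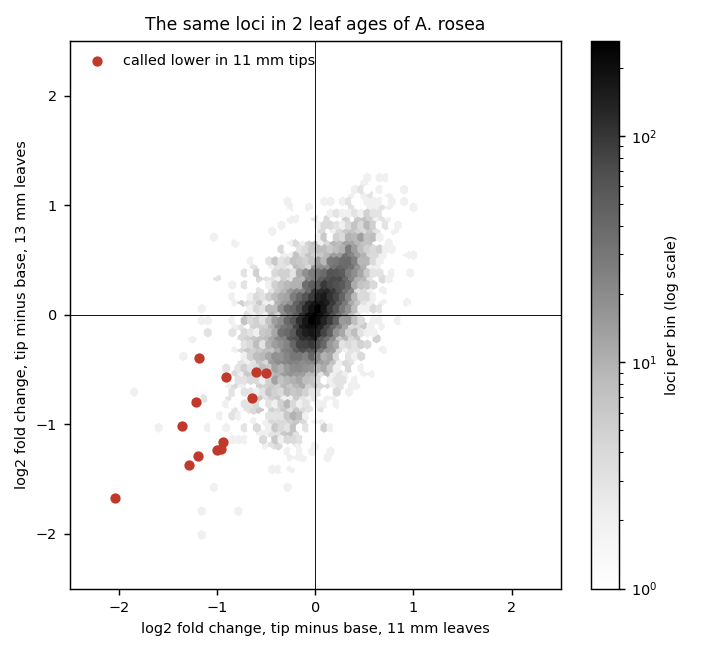
Log2 fold change of tip minus base at 11 mm (x axis) and 13 mm (y axis) for the loci tested, as a grey density on a log scale, with the 13 loci called at 11 mm in red; 22 loci beyond 2.5 on either axis are not drawn. The red points all lie in the lower left, where both differences are negative.

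No locus passed the test for a tip minus base difference that changed between 11 mm and 13 mm leaves. The interaction of part and age, (11 mm tip - 11 mm base) - (13 mm tip - 13 mm base), gave 0 loci in either direction in edgeR's quasi-likelihood test (0%), with 186 positive and 147 negative at unadjusted p under 0.05 (1.3% and 1.03%). For AT2G37360 the interaction was -0.79 (SE 0.317) and for AT5G11420 0.23 (SE 0.254). A p that misses the threshold does not show that the ages were alike: the mitosis list had a median of -0.28 at 11 mm and -0.999 at 13 mm.

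Of the 13 loci, 11 were also negative in tips of A. prostrata at the same index, where the median over all loci was -0.006. The 11 include the 3 DUF642 loci. They also include AT2G37360 (-0.08, SE 0.344) and AT3G51680 (-0.14, SE 0.228), both within 1 SE of 0. Moreover, the comparison holds a pair of libraries in doubt. Tip 1 and base 1 of 15 mm prostrata leaves differed by 1.14 per degree of freedom in a chi-square of their counts, close to sampling noise, where the other pairs of those 6 libraries differed by 7.49 to 83.9. With all libraries edgeR called 0 loci in either direction (755 higher, 5.11%, and 1128 lower, 7.63%, at unadjusted p under 0.05). Without that pair, an alternative chosen after seeing the data, it called 202 higher (1.36%) and 278 lower (1.87%), among them 5 of the 13: AT5G22580, WAT1, AT2G39540, AT1G19550 and AT3G54400. In prostrata leaves of 18 mm 7 of the 13 were called lower, against 2.38% of all loci. The 7 include the 3 DUF642 loci, which do not count as separate measurements.

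The size of the difference in prostrata was near that in A. rosea for some loci. WAT1 had a log2 fold change of -0.48 (SE 0.107) in 15 mm prostrata tips, or -0.56 (SE 0.121) without the doubtful pair, beside -0.50 in A. rosea. AT1G19550 had -0.58 (SE 0.196), or -0.75 (SE 0.202) without the pair, beside -0.60 in A. rosea. AT4G11230 was at 3.42 CPM in prostrata tips and 2.58 CPM in prostrata bases, with a log2 fold change of 0.38 (SE 0.316) and an interaction of part and species of -1.66 (SE 0.376, adjusted p 0.776), or -1.57 (SE 0.450, adjusted p 0.374) without the pair. That interaction gave 0 loci over the whole table with and without the pair (with it 386 positive, 2.61%, and 298 negative, 2.02%, at unadjusted p under 0.05 in edgeR), so no locus was shown to differ between the species in its tip minus base difference.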

How the data were processed

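The authors deposited 1 table of read counts per library for 21976 Arabidopsis loci; 5 with displaced values were left out. CASAVA, DESeq2 and the TAIR10 annotation appear in the submitters' processing notes, while the sources used here give no aligner, counting program or strand use. Columns were matched to samples by name; 12 of 60 count columns matched no label unambiguously and were not used.

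A group-means model of the 24 A. rosea libraries used edgeR 4.0.16 under R 4.3.3, TMM scaling and the default low-count filter (14336 loci; biological coefficient of variation 14.7%, 16 residual and 4.95 prior degrees of freedom). Species contrasts used all 48 libraries (14779 loci). Contrasts were tested with the quasi-likelihood F test, adjusted by Benjamini-Hochberg over all loci; called loci had an adjusted p under 0.05. SE was derived from F and the log2 fold change. Levels are CPM on TMM-scaled totals; library means of lists and the principal components used log2(CPM + 0.5). Library totals shifted the median over all loci to -0.10, against 0.00 with TMM. The fit was tested on simulated data whose counts were drawn independently for each library. That run therefore does not bear on how the calls depend on single libraries.

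The comparison, the 37 gene lists (612 loci by identifier, 478 in the table, 455 tested, 0 called, plus 3 lists by rule) and the named genes were chosen with earlier results of these data known. The rule named the 10 called loci with the largest change without overlap and at least 10 CPM in the higher part, plus a set list that included GLDP1 and TCP4, not in the table; AT4G15920, AT2G37360, WAT1 and other list members were named after their values were seen. Among tested loci 57 had counts identical to another locus in all A. rosea libraries, 25 of them list members and 0 called. Alternatives were DESeq2 1.42.0, DESeq2 size factors, library totals, no filter, other sets of libraries, a 2-fold rule, a block for replicate numbers and leaving out each library. Lane sharing is not given by library, so lane and part cannot be told apart. The SE includes the spread between libraries, while the chi-square of counts is set against counting error only.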

Additional observations from a re-analysis of the deposited data

How the results depend on the processing

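The 13 lower loci became 12 with DESeq2 size factors, 12 without a filter, 10 with library totals (8 of the 13) and 9 with the replicate block. The counts that moved further were 39 with DESeq2 (all 13 included) and 6 with the libraries of both species (5 of the 13), 7 with the 2-fold rule and 0 with the 6 libraries alone. Loci higher in tips, 0 in the main analysis, were 4 with DESeq2 and 1 with the replicate block. Leaving out 1 library gave 1 to 23 lower and 0 to 8 higher loci, the most without tip replicate 3. Between tip and base of the same replicate number the deviations correlated at 0.27 for number 1, and at 0.04 and 0.03 for numbers 2 and 3. Whether the libraries of number 1 share an origin was not tested. All 13 loci kept a negative log2 fold change in every alternative. AT1G19550 was called in the most, 11 of 14, and AT3G51680 and AT4G11230 came next with 9. WAT1 was called in the fewest, 3 of 14, and AT3G05260 in 4. Without replicate 1 of both 15 mm prostrata parts, 202 loci were higher and 278 lower in prostrata tips, against 0 and 0 with it. Both interactions stayed at 0 in every alternative run. SHR had a log2 fold change of -0.063 with library totals and of -0.031 to 0.23 when 1 library was left out, and MUTE of -0.49 to 0.11; neither was called. Of the list medians, those of heat shock, senescence, cytokinin, CIN-type TCPs, vein patterning, primary cellulose, wounding and cytosolic ribosomal proteins changed sign in at least 1 alternative. Depth was 9377672 counts or more per library, and AT4G15920 and AT2G37360 rest on 3 to 54 counts each.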

Other observations

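Organelle transcripts were on the lower side in tips at 11 mm, by an amount that depended on replicate 1. Of 83 tested plastid-encoded loci 73 had a negative log2 fold change in tips (median -0.45), 10 had all 3 tips below all 3 bases (12.0%, against 5.63% of all loci) and 0 were called in edgeR, while at 13 mm 75 of the 83 were positive (median 0.37). The 11 mm median was -0.89 without tip replicate 1 and -0.12 without base replicate 1. Plastid loci held 0.149%, 0.0844% and 0.0829% of counts in tips and 0.211%, 0.128% and 0.108% in bases. Of 44 mitochondrial loci 33 were negative (median -0.49) at 11 mm and 30 positive (median 0.16) at 13 mm. Its 11 mm median was -0.80 without tip replicate 1 and -0.02 without base replicate 1.

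Libraries of replicate number 1 shared high heat shock transcripts. The mean of 6 tested heat shock loci, relative to the 6 libraries, was 0.56, 0.19 and -0.44 log2 units in tips and 0.73, -0.57 and -0.47 in bases. HSP23.6, a mitochondrial small heat shock protein, had 104, 60.5 and 28.3 CPM in tips and 87.1, 18.17 and 21.9 CPM in bases. Whether the replicates were collected together was not tested.

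HYH, a light-signalling factor related to HY5, was high in 2 tips, with 8.75, 12.0 and 2.92 CPM in tips and 3.23, 2.28 and 2.73 CPM in bases (log2 fold change 1.51, adjusted p 0.187 in edgeR), and was called in DESeq2 (1.53, adjusted p 0.0330) and, in edgeR, without tip replicate 3 (1.92, adjusted p 0.0120).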
